A study of Mus musculus with 4 samples.

Results

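Il17a, Cd163l1, Il23r, Il1r1, Trdc and Cxcr6 are 6 genes expressed together in gamma-delta T cells that make interleukin-17 (IL-17). They were described in immune cells washed from the peritoneal cavity of mice. The 6 were chosen by symbol, with their pattern in these cells already known, and all 6 were found among the 32285 genes of both gene expression libraries. Their values are therefore given as a description. The 2 libraries represent wild-type (WT) and knockout (KO) mice. Both genotypes received a high-fat diet that began at the age of 4 weeks and lasted 3 months, so there is no group on another diet. CD45-positive cells, that is leukocytes, were sorted from the lavage fluid and put through 10x Genomics droplets, which count transcripts as unique molecular identifiers (UMIs) per cell barcode. A B-cell receptor library was made beside each expression library and served only to mark barcodes with a receptor contig. The labels do not say how many mice were pooled.

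Gamma-delta T cells carry a receptor of a gamma and a delta chain in place of the alpha and beta chains of most T cells. A subset that leaves the thymus before or around birth and settles in tissues rearranges the gamma segment Vγ6, named Tcrg-V6 in these files, usually with the delta segment named Trdv4. These cells are programmed in the thymus to make IL-17, a cytokine that recruits neutrophils and acts on epithelial, stromal and fat cells. They respond to the myeloid cytokines IL-23 and IL-1β without needing a peptide presented to their receptor. Il23r and Il1r1 encode the receptors for those 2 cytokines, and Il17a encodes the product. Cd163l1, also called Scart1, encodes a scavenger receptor of the cysteine-rich family found on this subset. Trdc encodes the constant part of the delta chain. Cxcr6 encodes the receptor for the chemokine CXCL16 and is found on many tissue-resident T and innate lymphocytes.

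AGGTCA is the core half-site bound by many nuclear receptors, and TGANTCA is the type of site bound by AP-1 factors. The 250 bases before the transcription start are shown for the cytokine, for the IL-23 receptor and for Cd163l1, because these 3 genes describe the product, the sensor and the surface marker of the same cells. The sequences are RefSeq's for build GRCm38.p6, 5′ to 3′ on the gene's own strand. Capitals mark AGGTCA on either strand (read as TGACCT when it lies on the other) and the AP-1 type motif TGANTCA, where N is any base. No overlap between the motifs occurred in them. The Il17a window lies at chr1:20730655-20730904 on the plus strand, the Il23r window at chr6:67491856-67492105 on the minus strand and the Cd163l1 window at chr7:140218017-140218266 on the plus strand.
Il17a: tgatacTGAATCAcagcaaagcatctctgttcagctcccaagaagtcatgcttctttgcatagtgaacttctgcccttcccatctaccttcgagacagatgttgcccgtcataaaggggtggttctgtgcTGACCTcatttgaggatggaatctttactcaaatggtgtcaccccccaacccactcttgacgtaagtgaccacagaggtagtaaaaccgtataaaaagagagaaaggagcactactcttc
Il23r: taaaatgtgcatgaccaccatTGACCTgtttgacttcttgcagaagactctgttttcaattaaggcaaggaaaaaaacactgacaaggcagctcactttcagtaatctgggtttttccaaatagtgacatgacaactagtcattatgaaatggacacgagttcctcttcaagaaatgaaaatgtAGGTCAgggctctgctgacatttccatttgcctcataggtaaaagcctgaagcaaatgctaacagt
Cd163l1: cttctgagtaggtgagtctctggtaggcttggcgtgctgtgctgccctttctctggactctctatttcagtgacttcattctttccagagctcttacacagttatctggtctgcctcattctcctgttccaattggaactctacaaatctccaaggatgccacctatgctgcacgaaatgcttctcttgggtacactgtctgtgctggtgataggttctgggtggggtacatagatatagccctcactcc
The Il17a window held 1 match to AGGTCA, starting at position -120 from the transcription start, and 1 match to TGANTCA, starting at -244. The Il23r window held 2 matches to AGGTCA, at -229 and -66. The Cd163l1 window held neither, and the same was true of the 2 windows of Il1r1 and the 1 window of Cxcr6. Of 32851 mouse windows of this length, 14.0% held AGGTCA and 6.75% held TGANTCA. A match of letters is not a binding site, and no binding was measured.

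The WT library held 10087 barcodes and 81817635 UMIs and the KO library 22516 barcodes and 103953298 UMIs, and the median barcode had 6362 and 3298 UMIs. After filtering, 9253 and 18394 barcodes remained. T barcodes were those with at least 2 UMIs of Cd3d, Cd3e and Cd3g together and at most 2 UMIs each of B-cell and of myeloid markers. There were 1814 in WT (median 4427.5 UMIs) and 3018 in KO (median 2309.5 UMIs). A further 57 and 214 barcodes with a single Cd3 UMI lay just outside the gate, and 456 and 639 Cd3-positive barcodes went over the B-cell or myeloid limit. Natural killer (NK) barcodes had no Cd3 UMI and at least 2 UMIs of Ncr1, Klrb1c and Klre1, which gave 277 and 395. The libraries shared 293 barcode sequences, of which 51 WT and 47 KO barcodes were in the T gate. Without the shared ones, the KO to WT ratio in T barcodes described below was 0.612 for Il17a and 2.80 for Cd163l1. With 1 library per genotype there is no spread between replicates. No test between genotypes was made, and all 95% intervals below cover counting error only. UMIs of a gene that come in bursts from a few cells vary more than such an interval allows.

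T barcodes of the KO library also carried more UMIs of B-cell and myeloid markers. The B-cell marker Cd79a was at 17.3 CPM (UMIs of a gene or list per 1000000 UMIs of the gate) in WT against 81.4 in KO, Cd79b at 15.7 against 46.2 and Ms4a1 at 3.97 against 27.9. The 4 myeloid markers summed to 9.10 and 54.4 CPM, with Csf1r at 2 UMIs in each library and Adgre1 at 0 and 3. With the limit for both sets lowered to 0 UMIs, the KO to WT ratios of the members in T barcodes were 0.706 for Il17a, 4.22 for Cd163l1, 1.99 for Il23r, 2.46 for Il1r1, 1.74 for Trdc and 1.67 for Cxcr6. Each lay on the same side of 1 as in the full gate, where the values are given next.

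The cytokine gene was lower in KO T barcodes while the receptor and surface genes were higher. Il17a gave 451 UMIs in 41 of 1814 WT T barcodes, or 52.6 CPM (47.9 to 57.7), and 274 UMIs in 62 of 3018 KO T barcodes, or 34.1 CPM (30.2 to 38.4). The share of T barcodes with an Il17a UMI was 2.26% in WT and 2.05% in KO, and positive barcodes averaged 11.0 and 4.42 UMIs of the gene. The KO to WT ratio was 0.648 (0.556 to 0.755) for CPM and 0.909 (0.615 to 1.34) for the share, and the second interval includes 1.

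Cd163l1 had the widest gap between libraries among the 6. It gave 396 UMIs in 52 WT barcodes (46.2 CPM, 41.8 to 51.0) and 1025 UMIs in 186 KO barcodes (128 CPM, 120 to 136), a ratio of 2.76 (2.46 to 3.11). Here the share of barcodes was higher as well, at 2.87% in WT and 6.16% in KO, a ratio of 2.15 (1.59 to 2.91).

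The cytokine receptor genes were sparse. Il23r gave 69 UMIs in 44 WT barcodes and 95 UMIs in 75 KO barcodes, at 8.05 and 11.8 CPM, a ratio of 1.47 (1.07 to 2.03). Il1r1 gave 34 UMIs in 26 WT barcodes and 71 UMIs in 56 KO barcodes, at 3.97 and 8.84 CPM, a ratio of 2.23 (1.46 to 3.46). Both were higher in KO per UMI, but the shares of T barcodes with a UMI had ratios of 1.02 (0.709 to 1.48) and 1.29 (0.816 to 2.05), whose intervals include 1.

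Cxcr6 was seen in more T barcodes than the other 5 genes in both libraries, and Trdc in more than the remaining 4 in WT but in fewer than Cd163l1 in KO. Trdc gave 209 UMIs in 84 WT barcodes (24.4 CPM) and 306 UMIs in 162 KO barcodes (38.1 CPM), a ratio of 1.56 (1.31 to 1.87). Cxcr6 gave 1175 UMIs in 410 WT barcodes (137 CPM) and 1708 UMIs in 712 KO barcodes (213 CPM), a ratio of 1.55 (1.44 to 1.67). Their shares of barcodes were close, at 4.63% and 5.37% for Trdc and 22.6% and 23.6% for Cxcr6.

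Among the 7823 genes at 10 CPM or more in T barcodes of either library, 2.7% had a KO to WT ratio over 1.5 and 0.882% a ratio under its inverse. Of the 6 members 5 reached that level, Il23r through the KO library alone, and Il1r1 did not. Cd163l1, Trdc and Cxcr6 were over 1.5 and Il17a was under the inverse. The members were chosen on this contrast, so nothing is read from that count. The whole interval lay over 1.5 for 1.21% of genes, Cd163l1 among them, and under the inverse for 0.281%, with no member among them. The median log2 ratio of all genes at that level was 0.02.

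**Figure D1:**
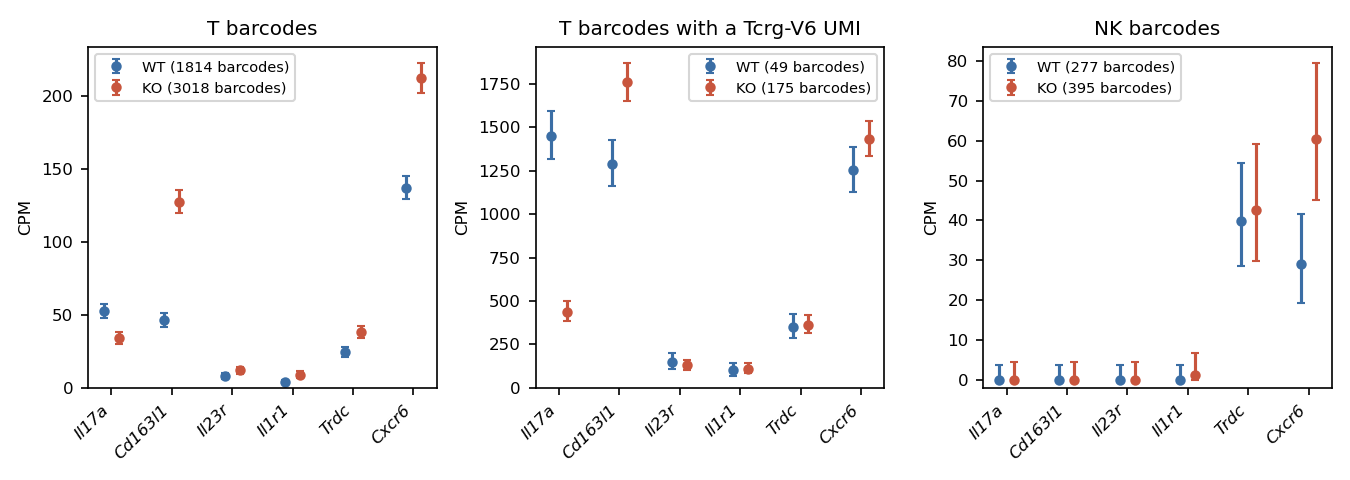
CPM (UMIs per 1000000 UMIs, vertical axis) of the 6 genes in T barcodes, in T barcodes with a Tcrg-V6 UMI and in NK barcodes of the WT (blue) and KO (red) library. Points are summed UMIs over the gate's total and bars are exact Poisson 95% intervals. Il17a is lower and Cd163l1 higher in KO in both T panels, and in NK barcodes only Trdc and Cxcr6 stand clear of 0.

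Il17a UMIs were concentrated in very few barcodes. The top WT barcode held 98 of the 451 UMIs, or 21.7%, and the next held 53. The 10 highest WT barcodes held 77.8%, and 4 barcodes were enough to reach 50% of the total. In KO the top barcode held 28 of 274 UMIs (10.2%), the next 19, the 10 highest 49.6%, and 11 barcodes were needed to reach 50%. The WT maximum was thus above any KO barcode, while the median positive barcode had 3 Il17a UMIs in both libraries. Without the top barcode of each library the ratio moved from 0.648 to 0.744 (0.629 to 0.878).

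The top WT barcode had 6050 UMIs in all, against a median of 4427.5 in the gate. It carried 14 Tcrg-V6 and 13 Trdv4 UMIs, 16 of Cd163l1, 13 of Cxcr6 and 1 of Trdc, and none of Trac, Cd4, Il23r, Il1r1 or the B-cell markers. The top KO barcode for Il17a had 8768 UMIs, with 14 Tcrg-V6, 39 Trdv4, 6 Cd163l1, 10 Cxcr6 and 3 Trdc UMIs, and it too had no Trac, Cd4, Il23r or Il1r1. Both barcodes therefore carried the Vγ6 receptor and 4 of the 6 members.

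The other 5 genes were spread over more barcodes. The top barcode held 4.80% of Cd163l1 UMIs in WT and 1.76% in KO, with a highest count of 19 and 18 UMIs. For Il23r it held 4.35% and 3.16%, at 3 UMIs in each library. For Il1r1 it held 11.8% and 4.23%, which are 4 and 3 UMIs. For Trdc it held 4.31% and 2.61%, and for Cxcr6 2.13% and 1.11%. Without the top barcode of each library, the ratios of these 5 genes were 2.85, 1.49, 2.42, 1.59 and 1.57 in the same order.

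**Figure D2:**
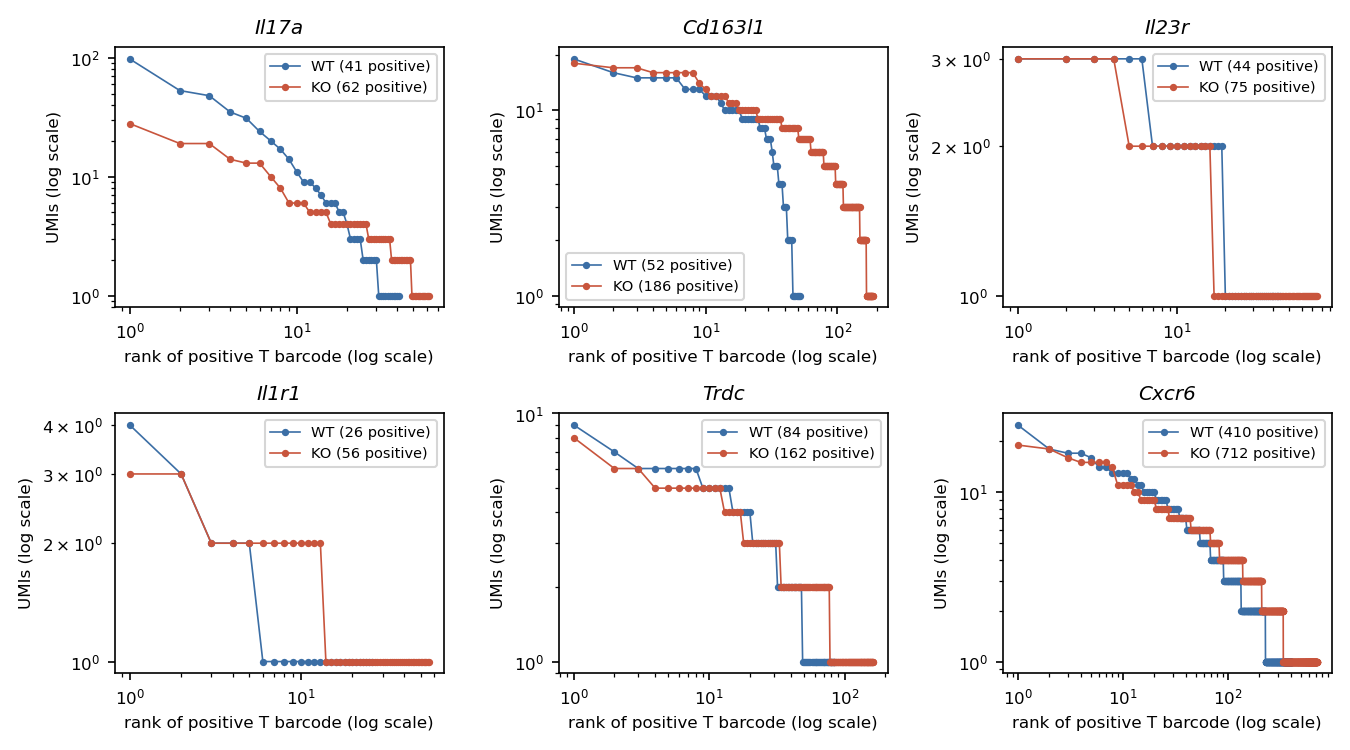
UMIs in each positive T barcode (vertical axis, log scale) against its rank (horizontal axis, log scale), 1 panel per gene, WT in blue and KO in red. The Il17a curve starts at 98 UMIs in WT and at 28 in KO and is steep, whereas the Cd163l1 curves start together and the KO curve runs on to 186 barcodes.

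The 6 genes overlapped in part of the barcodes. Exactly 1 of them was detected in 356 WT and 554 KO T barcodes, and at least 2 in 89 and 219. Among Il17a-positive T barcodes, Cd163l1 was also present in 28 of 41 in WT (68.3%) and 50 of 62 in KO (80.6%), against 2.87% and 6.16% of all T barcodes. Cxcr6 was present in 95.1% and 90.3% of them, Trdc in 65.9% and 51.6%, Il23r in 46.3% and 32.3% and Il1r1 in 41.5% and 35.5%. Read the other way, Il17a was present in 53.8% of Cd163l1-positive WT barcodes and in 26.9% of those in KO. The surface gene was therefore often found without the cytokine gene in both libraries, and KO barcodes also had fewer UMIs.

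All 26 Il1r1-positive WT barcodes and 55 of 56 in KO had Cxcr6. The reverse did not hold, since of 410 and 712 Cxcr6-positive barcodes only 9.51% and 7.87% had Il17a and 11.7% and 24.0% had Cd163l1. Cxcr6 thus accompanied the other members but was mostly found apart from them.

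**Figure D3:**
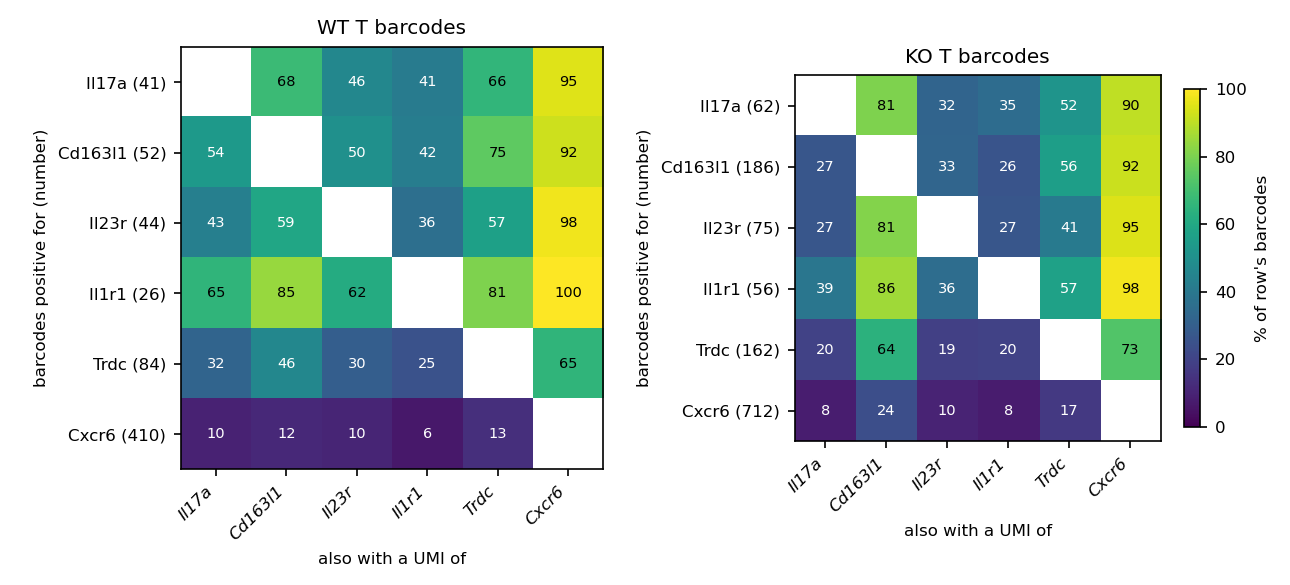
Percent of the T barcodes positive for the row's gene (number in brackets) that also had a UMI of the column's gene, for WT and KO, as colour and as printed value. The Cxcr6 column is high in every row except Trdc's (65 and 73), and the Cxcr6 row is low throughout. The Il17a column is lower in KO in every row.

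At least 3 of the 6 genes were detected in 52 of 1814 WT T barcodes (2.87%, 2.15 to 3.74) and in 151 of 3018 in KO (5.0%, 4.25 to 5.84), a ratio of 1.75 (1.28 to 2.38). With at least 4 genes the counts were 36 and 76 (1.98% and 2.52%), and the ratio of 1.27 (0.857 to 1.88) has an interval that includes 1. All 6 genes were seen in 10 WT and 6 KO barcodes. Fewer UMIs per barcode lower the chance of seeing several genes at once. After every barcode had been thinned to 2000 UMIs, which left out 122 WT and 1186 KO T barcodes, at least 3 genes were present in 1.89% and 5.24%. The single-gene shares in thinned barcodes were 2.36% and 7.75% for Cd163l1. For Il17a they were 1.65% (1.10 to 2.38) and 2.13% (1.52 to 2.90), the opposite order to the unthinned shares, with overlapping intervals.

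Receptor segments, which the T gate did not use, divided the members. Among all T barcodes, 2.70% in WT and 5.80% in KO had a Tcrg-V6 UMI. Among Il17a-positive ones the shares were 68.3% and 83.9%, among Cd163l1-positive ones 86.5% and 88.2%, and among Il1r1-positive ones 80.8% and 85.7%. Il23r-positive barcodes had Tcrg-V6 in 56.8% and 73.3%. Trdc-positive barcodes had it in 45.2% and 64.2% and Cxcr6-positive ones in 11.2% and 23.2%. Barcodes positive for Il17a, Cd163l1, Il1r1 and, less closely, Il23r thus mostly had this marker. Trdc also marked other barcodes, and Cxcr6 was mostly found outside Tcrg-V6 barcodes. The members were chosen with their pattern known and Tcrg-V6 after the data had been seen, so this does not test the program's name.

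Cd4, the marker of helper T cells, was detected in 9.76% of Il17a-positive barcodes in WT and 4.84% in KO, against 40.5% and 23.1% of all T barcodes. Trac, the constant gene of the alpha chain, was detected in 48.8% and 11.3% of Il17a-positive barcodes, against 40.2% and 27.0% of all T barcodes. The delta locus lies within the alpha locus, and Trac UMIs do not by themselves show an alpha-beta receptor.

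Tcrg-V6 barcodes held most of the UMIs. In WT, 49 T barcodes (2.70% of the gate) held 93.8% of Il17a, 94.9% of Cd163l1, 85.3% of Il1r1, 62.3% of Il23r, 48.8% of Trdc and 31.1% of Cxcr6 UMIs. In KO, 175 T barcodes (5.80%) held 88.7%, 95.1%, 84.5%, 74.7%, 65.7% and 46.5% of them. Another gamma or delta segment without Tcrg-V6 accounted for 45.5% and 26.8% of Trdc UMIs. Cd4 barcodes with no such segment held 23.0% and 13.3% of Cxcr6 UMIs, and 7 and 6 Il17a UMIs.

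**Figure D4:**
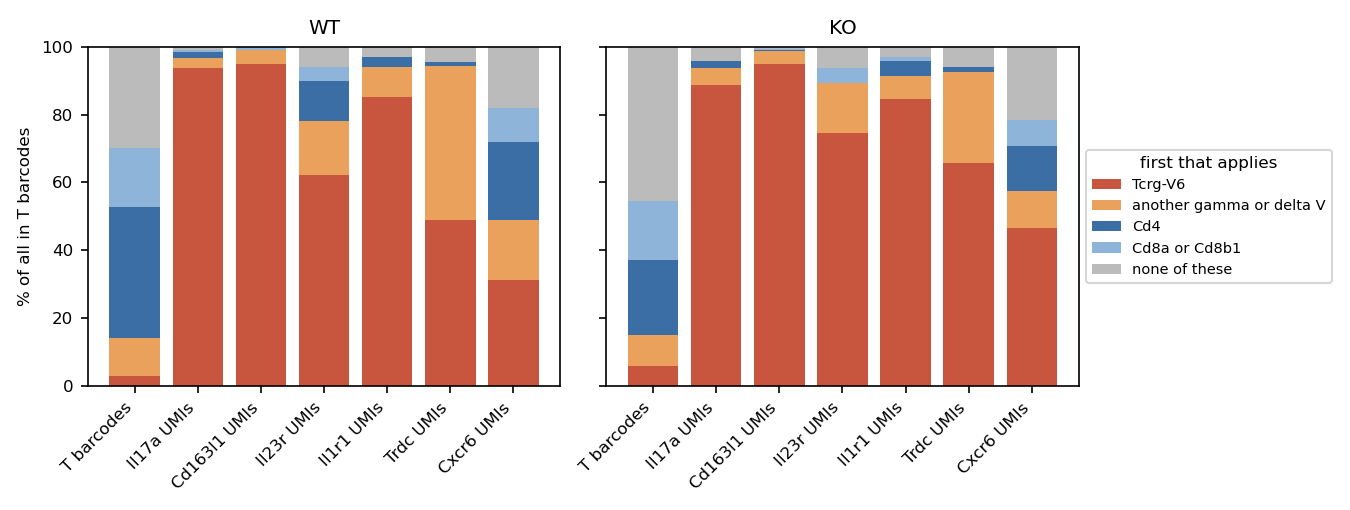
Percent of T barcodes (first bar) and of each gene's UMIs in T barcodes (other bars) by the first label that applies to the barcode: Tcrg-V6, another gamma or delta segment, Cd4, Cd8a or Cd8b1, or none of these, for WT and KO. A class with 2.70% of WT and 5.80% of KO T barcodes holds over 80% of the Il17a, Cd163l1 and Il1r1 UMIs.

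The set of T barcodes with a Tcrg-V6 UMI was then compared between the libraries. It was chosen after the data had been seen and uses none of the 6 genes. Its share of T barcodes was 2.70% in WT (2.0 to 3.56) and 5.80% in KO (4.99 to 6.69), a ratio of 2.15 (1.57 to 2.93), and in barcodes thinned to 2000 UMIs it was 2.60% and 6.77%. T barcodes with Tcrg-V4, the segment of another IL-17-making gamma-delta subset, were 3.03% in WT and 2.45% in KO, a ratio of 0.809 (0.573 to 1.14). Those with Tcrg-V1 were 1.98% and 1.86%, a ratio of 0.935 (0.618 to 1.42). Both of these intervals include 1, and these 2 shares were not thinned although KO barcodes had fewer UMIs. By CPM over all T barcodes the ratios were 1.25 (0.940 to 1.68) for Tcrg-V4 and 1.37 (0.975 to 1.94) for Tcrg-V1. These intervals also include 1, and the ratio for Tcrg-V6 UMIs was 2.83 (2.48 to 3.24). Tcrg-V6 was found in 0 of 277 WT and 1 of 395 KO NK barcodes. Trdv4 was found in 20.2% and 14.2% of NK barcodes, so it was not used to pick the set.

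Within Tcrg-V6 barcodes the CPM of Il17a was lower in KO and that of the other 5 genes was much closer. Il17a gave 423 UMIs in 28 of 49 WT barcodes, at 1452 CPM (1317 to 1597), and 243 UMIs in 52 of 175 KO barcodes, at 438 CPM (385 to 497). The ratio was 0.302 (0.257 to 0.354), and 0.346 (0.290 to 0.412) without the top barcode of each library. The gene was detected in 57.1% of WT and 29.7% of KO barcodes, and in 51.0% and 27.9% at 2000 UMIs per barcode. That thinning kept all 49 WT barcodes but left out 39 shallower KO barcodes, so the KO share is of 136. Scaled to 10000 UMIs per barcode, the 90th percentile was 42.1 in WT and 15.4 in KO, and the highest barcode was at 162 and 70.8.

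Cd163l1 was detected in nearly every Tcrg-V6 barcode, 45 of 49 in WT and 164 of 175 in KO. Its level of 1291 CPM in WT and 1759 in KO gave a ratio of 1.36 (1.21 to 1.54), below the 2.76 of all T barcodes. Il23r was at 148 and 128 CPM, a ratio of 0.868 (0.586 to 1.30). Il1r1 was at 99.5 and 108 CPM (1.09, 0.687 to 1.76) and Trdc at 350 and 363 CPM (1.04, 0.812 to 1.33). Cxcr6 was at 1253 and 1433 CPM, a ratio of 1.14 (1.01 to 1.30), whose interval included 1 under 4 of 8 alternatives. The intervals of Il23r, Il1r1 and Trdc include 1. The ratio of Il23r turned from 0.868 to 1.52 (0.723 to 3.58) in barcodes thinned to 2000 UMIs, on 9 WT and 38 KO UMIs. The shares of barcodes with a UMI of Il23r, Il1r1 and Trdc were lower in KO, at ratios of 0.616, 0.640 and 0.766. Their intervals lay below 1, but the median barcode of the set had 5692 UMIs in WT and 2960 in KO. At 2000 UMIs per barcode, with 39 shallower KO barcodes left out, the WT and KO shares were 16.3% and 24.3% for Il23r. They were 14.3% and 21.3% for Il1r1 and 49.0% and 41.9% for Trdc.

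These sets are small, and 36.7% of the 8455 genes at 10 CPM or more lay past 1.5-fold between them (16.1% over and 20.6% under). Of the 6 members, Il17a alone did so. The whole interval lay over 1.5 for 0.248% of genes and under its inverse for 0.686%, and Il17a was among the latter. The median log2 ratio of all these genes was -0.08. The 10 highest Tcrg-V6 barcodes held 83.0% of the Il17a UMIs in WT and 53.1% in KO. The interval, which covers counting error only, is therefore too narrow for this gene. The members were also chosen with their pattern known, so nothing is read from its place among all genes.

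T barcodes without Tcrg-V6 had few UMIs of Il17a, Cd163l1 and Il1r1, but a large part of those of Trdc and Cxcr6. Trdc gave 107 UMIs in WT and 105 in KO there, Il23r 26 and 24, and Il1r1 5 and 11. Il17a gave 28 UMIs in 13 of 1765 WT barcodes and 31 in 10 of 2843 KO barcodes, a ratio of 1.23 (0.711 to 2.12). One KO barcode held 13 of the 31 UMIs, and without the top barcode of each library the ratio was 0.906 (0.458 to 1.77). Cd163l1 gave 20 UMIs in 7 barcodes and 50 in 22, at 2.42 and 6.68 CPM, a ratio of 2.77 (1.62 to 4.91). The top WT barcode held 13 of the 20 UMIs, and without the top barcode of each library the ratio was 6.64 (2.95 to 17.5). Cxcr6 remained frequent, in 20.6% of these barcodes (97.8 CPM) in WT and 19.2% (122 CPM) in KO. Its CPM ratio was 1.25 (1.14 to 1.37).

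**Figure D5:**
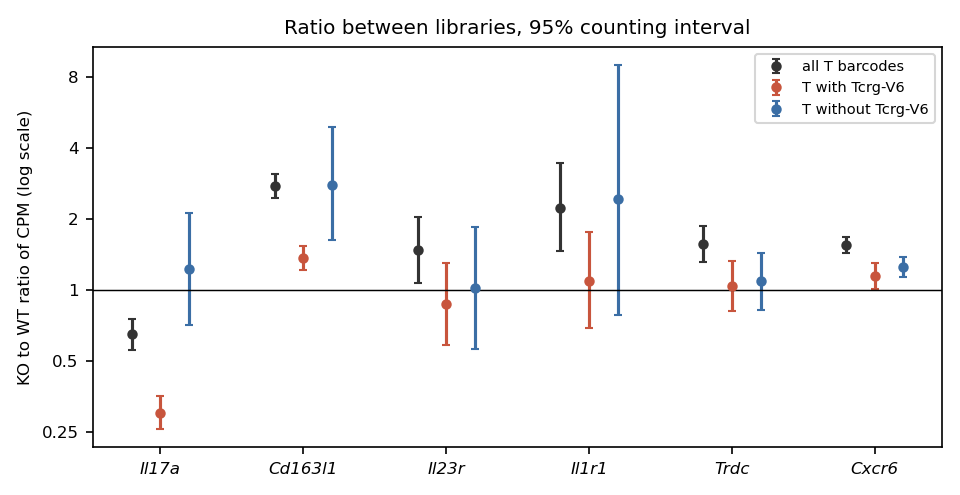
KO to WT ratio of CPM for each gene (vertical axis, log scale) with its 95% counting interval, in all T barcodes (black), T barcodes with Tcrg-V6 (red) and T barcodes without it (blue). Il17a in Tcrg-V6 barcodes is at 0.302, the lowest value, and Cd163l1 falls from 2.76 in all T barcodes to 1.36 in them. In T barcodes without Tcrg-V6, Cd163l1 is at 2.77, on few UMIs.

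Other cell markers differed between the 2 Tcrg-V6 sets. NK-marker UMIs (Ncr1, Klrb1c and Klre1) were present in 4 of 49 WT and 2 of 175 KO barcodes. Ccl5, a chemokine gene of cytotoxic lymphocytes, gave 466 UMIs in WT, 247 of them in 3 barcodes with NK-marker UMIs and 219 in 6 others, and 30 in KO. Ifng gave 10 and 5. Over the list of interferon-gamma type genes, 10 of 11 were under the inverse of 1.5 in KO and none were over. Of all genes in these barcodes, 20.6% were under and 16.1% over. Several of the list rested on few UMIs, such as Eomes at 6 and 1, Xcl1 at 6 and 4 and Cd27 at 12 and 4. The list was not recounted without the barcodes with NK-marker UMIs. In barcodes without an NK-marker UMI, where Ccl5 still stood at 219 against 30 UMIs, the ratio of Il17a was 0.297 (0.252 to 0.349) and that of Cd163l1 was 1.29 (1.14 to 1.46), close to the values in the full set. Most immediate-early genes were lower in KO, as Il17a was, with Fos at 813 and 332 CPM (0.408, 0.335 to 0.497), Egr1 at a ratio of 0.158 and Nr4a1 at 0.416, but Junb at 1.10. Their part in the Il17a difference was not tested.

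NK barcodes lacked the IL-17 genes. Il17a, Cd163l1 and Il23r had 0 UMIs in 277 WT and 395 KO NK barcodes, which allows shares of barcodes with a UMI of up to 1.08% and 0.759% and does not limit the share of cells that express the gene. Il1r1 had 0 and 1. Trdc gave 40 UMIs in 30 WT barcodes (10.8%, 39.9 CPM) and 36 UMIs in 31 KO barcodes (7.85%, 42.7 CPM), a ratio of 1.07 (0.663 to 1.72). The Trdc-positive NK barcodes had no UMI of Tcrg-C1 or Tcrg-V6 in either library.

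Cxcr6 gave 29 UMIs in 20 WT NK barcodes (28.9 CPM) and 51 UMIs in 28 KO NK barcodes (60.6 CPM), a ratio of 2.09 (1.30 to 3.42) with shares of 7.22% and 7.09%. Over all genes in NK barcodes 10.2% had a ratio over 1.5 and 8.2% a ratio under its inverse, so single genes often passed this fold in sets of this size. The whole interval lay over 1.5 for 0.642% and under its inverse for 0.21%, with neither gene among them. Only Trdc and Cxcr6 reached 10 CPM there. In NK barcodes no more than 1 member was detected per barcode, apart from 1 KO barcode with 2.

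Free RNA in the droplets gives a few UMIs to cells that do not express a gene. B-cell barcodes (median depth 6806 UMIs, WT, and 3190 UMIs, KO) had Cxcr6 in 0.246% of 6086 and 0.191% of 12544. Il17a was absent from all of them, and each of the other 4 genes was found in at most 4 barcodes of a library. The shares in T barcodes, and those of Trdc and Cxcr6 in NK barcodes, were therefore above this background.

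Some other genes of the program were also higher in KO T barcodes. From a list of 30 further genes, 25 reached 10 CPM in T barcodes, 9 of them were over 1.5 in KO and 0 under its inverse, with a median log2 ratio of 0.52. Over all genes in T barcodes the shares were 2.7% and 0.882%, and the median log2 ratio was 0.02. Il7r (1.02), Rora (1.04), Ccr6 (1.05) and Batf (1.01) were close to even, as was Cd44, and 5830411N06Rik, under 10 CPM, was lower in KO at 0.490 (0.301 to 0.778). Il22, which encodes another cytokine of these cells, gave 28 and 110 UMIs (ratio 4.19, 2.75 to 6.59), of which only 4 and 26 lay in Tcrg-V6 barcodes. Blk, a kinase gene of B cells and of this gamma-delta subset, was at 19.1 and 40.3 CPM (2.11), and Ltb4r1, a leukotriene B4 receptor gene, at 26.9 and 56.4 CPM (2.09). Tmem176b was at 168 and 307 CPM (1.82).

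Within Tcrg-V6 barcodes the same list was close to even by CPM, as the receptors were. There 29 genes reached 10 CPM, 4 were over 1.5 and 2 under, and the median log2 ratio was 0.09. Over all genes in these barcodes the shares were 16.1% and 20.6%, and the median log2 ratio was -0.08. The list's counts are thus not read as a difference. Blk was at 463 and 460 CPM and Maf at 223 and 233 CPM. Il22 gave 4 UMIs in WT and 26 in KO (3.42, 1.19 to 13.5) and Ahr, the aryl hydrocarbon receptor gene, 17 and 73 (2.26, 1.32 to 4.08). Lgals3, the galectin-3 gene, was at 618 and 191 CPM (0.310, 0.241 to 0.396). Il17a and Il22 thus lay on opposite sides of 1, although Il22 rested on few UMIs.

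Signalling genes behind the 2 receptors lay on both sides of 1 in T barcodes. Of 13 genes, 10 reached 10 CPM, 1 was over 1.5 and 0 under, against 2.7% and 0.882% of all genes, and the median log2 ratio was 0.04 against 0.02. Il12rb1, the second chain of the IL-23 receptor, was at 8.28 and 13.4 CPM (1.62, 1.19 to 2.22). Stat3, which carries the IL-23 signal, was at 115 and 113 CPM. In Tcrg-V6 barcodes 10 genes of the list reached 10 CPM, with 0 over 1.5 and 2 under its inverse. Of all genes in those barcodes, 16.1% were over and 20.6% under, so the list was near that share. Stat3 was there at 209 and 110 CPM (0.526, 0.363 to 0.762), and Il12rb1 at 65.2 and 70.4 CPM (1.08, 0.609 to 1.98).

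The ligands were looked for in myeloid barcodes, 123 in WT and 425 in KO. Il1b stood at 964 and 714 CPM. Il23a gave 2 UMIs in WT and 0 in KO, and Il12b gave 0 in both. Cxcl16, the ligand of Cxcr6, was at 60.4 and 61.0 CPM. Il17ra, a receptor chain for IL-17, was at 36.6 and 55.9 CPM. Transcripts of the IL-23 chains were thus hardly detectable at this depth, while those of IL-1β and CXCL16 were present in both libraries.

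The genes most like each member across T barcodes were found from the Pearson correlation of log-transformed UMIs per 10000, taking the lower of the 2 libraries' values. The points are single barcodes that share a library and differ in depth, so the values only describe. For Cd163l1 the closest were Blk (0.770 in WT and 0.640 in KO), Tmem176b (0.619 and 0.686), Tcrg-C1 (0.611 and 0.642), Tmem176a (0.608 and 0.681) and Actn2 (0.578 and 0.630). For Il17a they were Tmem176b (0.530 and 0.401), Tmem176a, Serpinb1a, Ltb4r1 and Ckb. Tmem176a and Tmem176b were among the 5 closest for all 6 members. Between members, Il17a and Cd163l1 had values of 0.676 in WT and 0.431 in KO.

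The barcodes with at least 3 members were also set against the remaining T barcodes. Since the barcodes were picked by the members, these are descriptions. By the lower ratio of the 2 libraries, the leading genes were Sox13, Abi3bp, Cryba4, Pram1, Kcnk1, Clnk, Slc6a13, Adam12, Hbegf and Blk. Sox13, a transcription factor gene of the gamma-delta lineage, was at 102 CPM against 0.364 CPM in WT and at 124 CPM against 1.46 CPM in KO. Blk was at 437 against 2.18 CPM in WT and 463 against 11.4 CPM in KO, and Blk is also expressed in B cells, whose RNA was higher in KO T barcodes.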

How the data were processed

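The deposited matrices hold unnormalised UMI counts per gene and barcode. The software was Cell Ranger 6.1.2 per the file headers but version 6.0.1 per the submitters' processing notes, which add Seurat 4.3.0 and mm39, so the annotation behind the counts is uncertain. The deposited receptor contigs also carry counts of reads and UMIs, and only their barcodes were used. The labels name a 3′ kit, yet V segments were abundant, so the transcript end that was read is uncertain.

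Barcodes under 200 genes or at 10% or more mitochondrial UMIs were left out. The highest Scrublet doublet scores (scanpy 1.11.5) were removed up to 0.8% per 1000 barcodes, 765 in WT and 3933 in KO, because the automatic threshold marked 0 and 2131. Barcodes were gated on marker UMIs, and none of the 6 genes entered a gate. B-cell barcodes had at least 3 UMIs of Cd79a and Cd79b, and myeloid barcodes at least 5 of Csf1r, Adgre1, C1qa and Lyz2. UMIs were summed per gate and divided by the gate's total to give CPM, with exact Poisson intervals. Ratios carry exact conditional binomial intervals, shares Clopper-Pearson intervals and ratios of shares a log-normal approximation, at 95%. A limit for a count of 0 is that of 3 counts. Ratio and thinning code was tested on simulated data. No p-value was computed. The knocked-out gene is not reported here.

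The members, gene lists, gates and rule for named genes (the 6, any list gene detected, the 5 closest genes per member and the 10 leading genes of barcodes with at least 3 members) were chosen with earlier results of these data known, and the Tcrg-V6 set after these tables had been seen. RefSeq promoter windows were found for 5 of the 6 members and cut to the 250 bases before the start.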

Additional observations from a re-analysis of the deposited data

How the results depend on the processing

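In 169 recalculations of 18 results, no ratio whose interval excluded 1 changed direction. In T barcodes, thinning to 2000 UMIs gave ratios of 3.59 for Cd163l1, 2.89 for Il23r, 3.51 for Il1r1 and 1.77 for Cxcr6. Thinning also gave 2.77 for the share with at least 3 members. Without thinning, the ratio for the share with at least 4 members was 1.27. Cd163l1 reached 4.22 with B-cell and myeloid markers at 0 UMIs, and Cxcr6 1.68 with at least 4 Cd3 UMIs. In Tcrg-V6 barcodes, Cd163l1 was at 1.58 with those markers at 0, and thinning gave 1.52 for Il23r and 0.776 for Trdc, whose intervals include 1 in both cases. These Tcrg-V6 alternatives were chosen after seeing the data. The cause of these shifts was not tested. Genes past 1.5-fold in T barcodes numbered 211 higher and 69 lower, against 30 and 24 at 50 CPM, 2935 and 1885 with no filter, and 95 and 22 with the whole interval past 1.5. The other 152 recalculated values, with the T-like and NK-like clusters among them, stayed within the interval or within 1.5 times the count. In NK barcodes, Il17a, Cd163l1, Il23r and Il1r1 gave no ratio because WT had 0 UMIs. No paired analysis was possible because each genotype has 1 expression library. Il23r and Il1r1 rest on at most 95 UMIs per library in T barcodes.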
